A study of Mus musculus with 18 samples.

Results

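Keratins, the small proline-rich (Sprr) proteins and the desmosomal cadherins are genes that sort epithelia by type, and they were followed here through the colons of mice given dextran sulfate sodium (DSS) and then Lactobacillus plantarum ZJ316 or its derivatives. Genes were taken by symbol: Krt with a number, any Sprr gene, Dsg or Dsc with a number, and Ivl and Trp63, with keratin-associated proteins and pseudogenes left out. This gave 65 of the 18349 genes in the table: 41 keratins, 13 Sprr genes, 6 desmogleins, 3 desmocollins, Ivl and Trp63. A further 13 genes with such symbols were not analysed here.

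Keratins are the intermediate filaments of epithelial cells and assemble as heteropolymers of an acidic type I and a basic type II chain. Columnar gut epithelium uses Krt8 (type II) with Krt18, Krt19 and Krt20 (type I), whereas stratified squamous epithelium uses Krt5 with Krt14 in its basal layer and Krt4 with Krt13, or Krt1 with Krt10, above it. Sprr proteins and involucrin (Ivl) are cross-linked into the cornified envelope of squamous cells, desmogleins and desmocollins hold neighbouring cells together at desmosomes, and Trp63 is the transcription factor of the basal squamous layer. The colon is lined by columnar cells, and squamous epithelium begins at the anal canal.

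The RNA came from whole colons of male C57BL/6 mice of wild-type genotype, whose age is not given in the sources used here. Control mice (n = 3 libraries) drank water and no gavage is described for them; DSS mice (n = 3) drank 2.5% DSS for 7 days and then received phosphate-buffered saline by gavage for 5 weeks. The WT, KO and COM groups (n = 4 each) had the same DSS course and then received ZJ316, ZJ316-KO or ZJ316-COM by gavage for 5 weeks. What KO and COM stand for is not stated in the labels, and DSS is a model of chemical colitis sampled here long after the DSS itself. Nothing in the labels ties a library to a separate animal, so p-values measure the spread between libraries, which may be technical in part. Values are FPKM, fragments scaled to transcript length and library size. Library totals ran from 517933 to 558590 FPKM, while the number of fragments behind them is unknown.

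The label of the set was checked against the data, and it held for some members and not for others. The 4 simple-epithelium keratins and some Sprr, Dsg and Dsc genes were high in every library. For 11 members, among them Krt5, Krt14, Krt4 and Krt13, the same 5 of the 18 libraries lay above all others, at levels from 0.21 to 97.4 FPKM. Others of the same basal and mucosal classes, Krt15, Krt76 and Krt78, did not have this order, and the members of the epidermal suprabasal class stayed at or under 2.02 FPKM in every library. In all, 35 of 65 members reached 1 FPKM in some library, 30 stayed below it in every library, and Krt32, a hair keratin, was listed at 0 in all 18. The filter for testing, at least 1 FPKM in at least 3 libraries, was passed by 27 members.

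Members lie in clusters in the genome (build GRCm38.p6, RefSeq). The 19 type I keratins of the table other than Krt18 lie on chromosome 11 between 99232761 and 100269951, and 22 keratins lie on chromosome 15 between 101348315 and 102032026. The second group holds the type II genes and also Krt18. The 13 Sprr genes and Ivl lie on chromosome 3 between 92215835 and 92573790, and Trp63 lies on chromosome 16 between 25683763 and 25892088. Neighbours in a cluster did not share a level: Krt8 and Krt5 are on the same chromosome, and so are Sprr2a2 and Sprr2d, yet within each of these pairs the first gene was high in every library and the second in 5 libraries. Their promoters are therefore shown, each from 250 bases before to 50 bases after the gene start, 5′ to 3′ on the gene's own strand, from the RefSeq table of GRCm38.p6. They lie at chr15:102004293-102004592 (Krt8, minus strand), chr15:101712856-101713155 (Krt5, minus), chr3:92250397-92250696 (Sprr2a2, plus) and chr3:92338890-92339189 (Sprr2d, plus). Capitals mark matches to the motifs searched.
Krt8: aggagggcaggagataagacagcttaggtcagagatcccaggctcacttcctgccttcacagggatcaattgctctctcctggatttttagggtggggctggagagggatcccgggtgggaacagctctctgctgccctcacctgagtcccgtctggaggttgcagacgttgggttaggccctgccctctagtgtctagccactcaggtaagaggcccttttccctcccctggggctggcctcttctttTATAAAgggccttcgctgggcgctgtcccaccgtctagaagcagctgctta
Krt5: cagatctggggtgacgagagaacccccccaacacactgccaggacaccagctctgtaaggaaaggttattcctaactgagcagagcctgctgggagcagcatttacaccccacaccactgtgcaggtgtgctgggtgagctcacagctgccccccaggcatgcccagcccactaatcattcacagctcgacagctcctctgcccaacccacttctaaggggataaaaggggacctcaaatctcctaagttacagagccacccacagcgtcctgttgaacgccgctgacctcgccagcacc
Sprr2a2: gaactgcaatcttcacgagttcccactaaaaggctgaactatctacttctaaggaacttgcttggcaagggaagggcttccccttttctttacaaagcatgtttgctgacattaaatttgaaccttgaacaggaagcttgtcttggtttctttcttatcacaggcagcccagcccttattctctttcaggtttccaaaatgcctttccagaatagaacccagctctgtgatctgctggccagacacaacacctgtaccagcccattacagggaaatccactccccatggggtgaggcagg
Sprr2d: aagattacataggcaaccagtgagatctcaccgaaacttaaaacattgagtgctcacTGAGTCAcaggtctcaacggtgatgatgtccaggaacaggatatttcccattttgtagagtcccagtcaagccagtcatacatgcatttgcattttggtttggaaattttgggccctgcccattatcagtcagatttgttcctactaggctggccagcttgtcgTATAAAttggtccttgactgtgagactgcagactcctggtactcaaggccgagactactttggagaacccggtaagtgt

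The core promoter element TATAAA was searched on the gene strand. The AP-1 motif TGANTCA, the grainyhead-like motif AACNGGTT and the GC box GGGCGG were searched on both strands, and no matches overlapped in the 4 sequences. Krt8 held TATAAA starting at -1 from the gene start, and Sprr2d held TATAAA at -29 and TGANTCA at -193. Neither Krt5 nor Sprr2a2 held any of the 4 motifs in these windows. Of the 56 members other than desmosomal cadherins, 39 had a promoter in the table. Of these 39, TATAAA was in 21, TGANTCA in 11, GGGCGG in 3 and AACNGGTT in 0. Of all 32851 promoters of this length, 8.32% held TATAAA, 7.81% TGANTCA, 35.66% GGGCGG and 2.09% AACNGGTT. These shares are per promoter, whereas a member was counted if any of its promoters held the motif, so they are not of like measure. All members with TGANTCA other than Ivl and Krt13 were Sprr genes, which lie in 1 cluster. The promoters shown for Krt8 and Krt5 were 45.7% identical, and those for Sprr2a2 and Sprr2d 47.3%. The windows of Sprr2a1 and Sprr2a2 were 100% identical.

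The keratins of columnar epithelium made up nearly all keratin signal of the colon. Krt8, the main type II chain of these cells, measured 2843, 2789.7 and 2344 FPKM in Control 1 to 3, 2102, 2261 and 2042 in DSS 1 to 3, 2399, 2485, 2289.6 and 2803 in WT 1 to 4, 2674, 3135, 2702 and 3024 in KO 1 to 4, and 2530.0, 2459, 2727 and 2687 in COM 1 to 4. Krt19, a type I chain of glandular epithelium that lacks a tail domain, measured 2796, 2808 and 2139 FPKM in Control 1 to 3, 1832, 2069 and 1816 in DSS 1 to 3, 2096, 2247, 2128 and 2609 in WT 1 to 4, 2338, 2933, 2319 and 2635 in KO 1 to 4, and 2217, 2099, 2376 and 2424 in COM 1 to 4. Every Control library was above every DSS library for both genes, and KO 2 was the highest library of the series for both. Krt18, the type I chain that pairs with Krt8 in most simple epithelia, measured 273, 306 and 280.3 FPKM in Control 1 to 3, 280.4, 282 and 286 in DSS 1 to 3, 279, 262, 267 and 332 in WT 1 to 4, 384, 466, 352 and 369.8 in KO 1 to 4, and 286, 298, 299 and 321 in COM 1 to 4. Its 4 KO libraries lay above all 14 other libraries. Krt20, the type I chain of differentiated cells at the luminal surface, measured 381, 516 and 653 FPKM in Control 1 to 3, 391.6, 302 and 389 in DSS 1 to 3, 384, 452, 432 and 477 in WT 1 to 4, 379, 854, 515 and 586 in KO 1 to 4, and 474, 540.0, 422 and 402 in COM 1 to 4. It was highest in KO 2 and Control 3 and lowest in DSS 2. Type II and type I chains of simple epithelium stayed close in sum: Krt7 plus Krt8 over Krt18 plus Krt19 plus Krt20 was 0.754 in KO 2, the lowest, and 0.906 in COM 3, the highest. Krt8 was 6.73 to 10.4 times Krt18 and 0.994 to 1.17 times Krt19 in FPKM. Krt8 shares 26.9% of its 50-base stretches with the pseudogene Krt8-ps, so its level is the less certain of these.

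**Figure D1:**
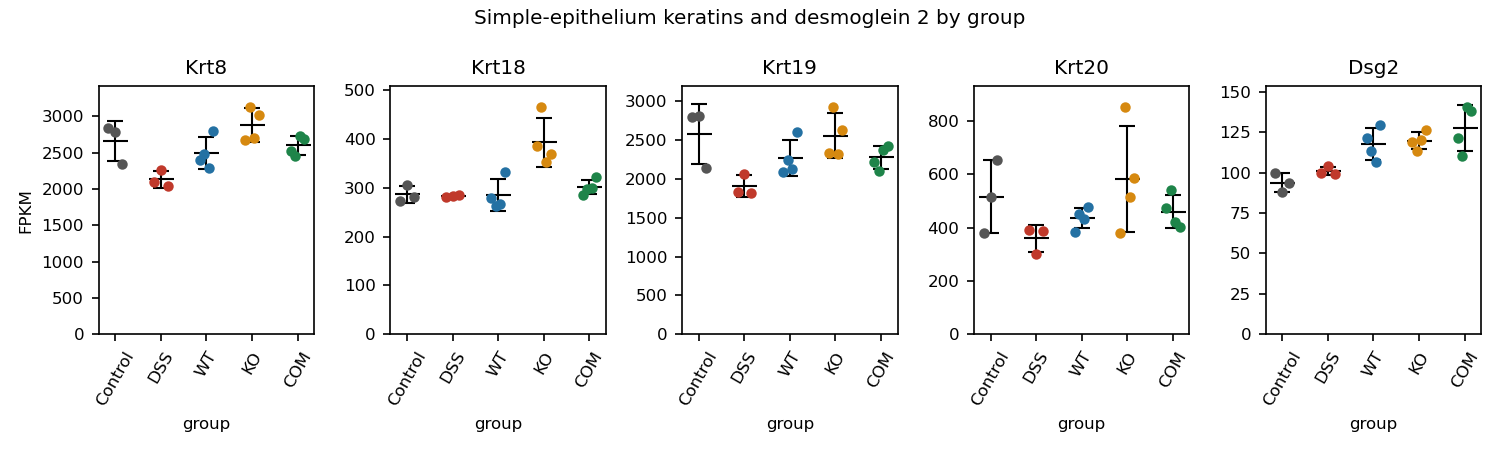
Krt8, Krt18, Krt19, Krt20 and Dsg2, the desmoglein of simple epithelia, in FPKM in each library (points), by group, with group means and SD (bars; n = 3 for Control and DSS, n = 4 for WT, KO and COM). The KO points for Krt18 lie between 352 and 466 FPKM, above those of every other group.

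The basal squamous keratins were high in the same 5 libraries: DSS 2, WT 2, WT 4, KO 3 and COM 3. Krt5, the basal type II chain, measured 0, 0.06 and 0.07 FPKM in Control 1 to 3, 0.03, 88.1 and 0 in DSS 1 to 3, 0.03, 34.5, 0.06 and 22.3 in WT 1 to 4, 0.71, 0.13, 13.7 and 0.06 in KO 1 to 4, and 0.06, 0.12, 94.3 and 0.06 in COM 1 to 4. Krt14, its type I partner, measured 1.33, 0.35 and 0.21 FPKM in Control 1 to 3, 2.6, 97.4 and 1.06 in DSS 1 to 3, 3.79, 35.8, 3.03 and 23.0 in WT 1 to 4, 4, 0.76, 15.3 and 1.34 in KO 1 to 4, and 1.73, 1.8, 93.4 and 4.4 in COM 1 to 4. The lowest of the 5 libraries for each gene was KO 3, at 13.7 FPKM for Krt5 and 15.3 for Krt14, against at most 0.71 and 4.4 in the 13 other libraries. No Control library was among the 5, and each group given DSS held at least 1 of them and at least 2 libraries without the signal. Krt15, another basal type I chain, reached at most 1.91 FPKM, in COM 3. Trp63, the regulator of the basal layer, measured 0, 0 and 0.04 FPKM in Control 1 to 3, 0.06, 1.32 and 0.05 in DSS 1 to 3, 0.01, 0.97, 0 and 0.55 in WT 1 to 4, 0.04, 0.04, 0.24 and 0.04 in KO 1 to 4, and 0, 0.02, 1.59 and 0.02 in COM 1 to 4. It followed Krt5 at a low level and did not pass the filter. In bulk RNA, fewer cells of a type and less RNA per cell cannot be told apart.

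The keratins of moist squamous mucosa, such as that of mouth, oesophagus and anal canal, had the same pattern. Krt13, the type I chain above the basal layer, measured 0.49, 0.45 and 0 FPKM in Control 1 to 3, 1.18, 86.2 and 0.71 in DSS 1 to 3, 1.63, 35.3, 0.96 and 22.3 in WT 1 to 4, 2.15, 1.21, 10.8 and 1.08 in KO 1 to 4, and 0.74, 1.41, 82.0 and 1.11 in COM 1 to 4. Krt4, its type II partner, measured 0, 0.03 and 0.03 FPKM in Control 1 to 3, 0, 6.46 and 0.03 in DSS 1 to 3, 0.03, 4.59, 0.03 and 3.02 in WT 1 to 4, 0.03, 0.03, 1.5 and 0 in KO 1 to 4, and 0.03, 0.06, 6.97 and 0.03 in COM 1 to 4. Krt4 was 0.075 to 0.139 times Krt13 in the 5 libraries, so this couple did not match in level, while Krt5 was 0.899 to 1.01 times Krt14. Krt78, another type II chain of squamous mucosa, lay at 0.07 to 0.78 FPKM with no link to the 5 libraries, and Krt76 reached 0.03.

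The keratins of injured, folded and fast-renewing squamous skin and mucosa were split. Krt6a, an inducible type II chain, measured 0, 0.06 and 0 FPKM in Control 1 to 3, 0.03, 85.0 and 0 in DSS 1 to 3, 0.09, 35.4, 0.06 and 17.8 in WT 1 to 4, 0.33, 0.06, 12.2 and 0 in KO 1 to 4, and 0, 0.09, 74.8 and 0 in COM 1 to 4. Krt6b, its close copy, measured 0.03, 0.03 and 0 FPKM in Control 1 to 3, 0.06, 28.3 and 0.13 in DSS 1 to 3, 0.12, 11.2, 0.06 and 5.62 in WT 1 to 4, 0.09, 0.06, 3.35 and 0.03 in KO 1 to 4, and 0.03, 0.21, 28.3 and 0.09 in COM 1 to 4. Both were at or under 0.33 FPKM outside the 5 libraries. They share 45.7% and 50.1% of their 50-base stretches with other genes, mostly each other, so their single values are uncertain. Krt17, a type I chain of appendages and wound edges, measured 3.93, 3.17 and 1.5 FPKM in Control 1 to 3, 2.29, 11.6 and 1.57 in DSS 1 to 3, 2.69, 5.06, 1.87 and 3.57 in WT 1 to 4, 2.99, 2.33, 5.09 and 2.2 in KO 1 to 4, and 2.39, 1.95, 6.67 and 2.1 in COM 1 to 4. It was above 1 FPKM everywhere and highest in DSS 2, and its level in WT 4 fell within those of the 13 other libraries. Krt16, a type I partner of Krt6a, reached at most 2.53 FPKM, and it too shares sequence with other genes (37.6% of its 50-base stretches).

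Members typical of dry, cornifying epidermis were low in all libraries, the same 5 included. Krt10, the type I chain above the basal layer of skin, lay at 0.73 to 1.41 FPKM in all 18 libraries, and overlapped between the 5 libraries and the rest. Krt80, a type II chain, was at 1.67 FPKM in DSS 2, 1.74 in WT 2, 2.02 in WT 4 and 1.8 in COM 3, above all 13 other libraries (0.45 to 1.16), and at 0.86 in KO 3. Krt1, the type II partner of Krt10, reached at most 0.11 FPKM, Krt79 0.1 and Krt2 0.03. Ivl, a scaffold of the cornified envelope, measured 0, 0 and 0 FPKM in Control 1 to 3, 0, 0.04 and 0 in DSS 1 to 3, 0, 0, 0 and 0.07 in WT 1 to 4, 0, 0, 0 and 0 in KO 1 to 4, and 0, 0, 0.04 and 0 in COM 1 to 4. Dsg1a, Dsg1b, Dsg1c and Dsc1, the desmosomal cadherins of the upper epidermis, were at or under 0.08 FPKM, and Dsg4 at or under 0.11. Loricrin (Lor) and filaggrin (Flg), outside the set, reached 0.61 and 0.05 FPKM. They are among 10 of 31 cornified-envelope and squamous differentiation partners in the table that stayed below 1 FPKM in every library. Others of that list were higher, with means over the series of 596 FPKM for Tgm3, 152 for Sfn and 12.5 for Casp14.

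Dsg3, the desmoglein of basal and mucosal squamous cells, measured 0, 0.02 and 0.02 FPKM in Control 1 to 3, 0.06, 3.5 and 0 in DSS 1 to 3, 0.16, 1.66, 0.08 and 1.03 in WT 1 to 4, 0.16, 0.02, 0.47 and 0.03 in KO 1 to 4, and 0, 0.08, 4.31 and 0.1 in COM 1 to 4. Dsc3, its desmocollin counterpart, lay at 0.26 to 0.68 FPKM in the 5 libraries and at most at 0.18 elsewhere. Dsg2, the desmoglein of simple epithelia, measured 99.9, 88.1 and 93.7 FPKM in Control 1 to 3, 100, 104 and 99.4 in DSS 1 to 3, 122, 114, 107 and 129.8 in WT 1 to 4, 119, 114, 120.0 and 126 in KO 1 to 4, and 122, 111, 141 and 138 in COM 1 to 4. Dsc2, the desmocollin of simple epithelia, measured 30.3, 34.0 and 64.3 FPKM in Control 1 to 3, 47.9, 45.3 and 48.8 in DSS 1 to 3, 47.4, 54.8, 48.4 and 48.4 in WT 1 to 4, 40.7, 75.6, 43.9 and 49.1 in KO 1 to 4, and 48.6, 47.1, 48.5 and 50.7 in COM 1 to 4. Neither gene was tied to the 5 libraries. Control 1 to 3 were below every WT, KO and COM library for Dsg2, while for Dsc2 Control 3 and KO 2 stood at the top and Control 1 and 2 at the bottom.

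The Sprr family held both patterns. The Sprr2a proteins are also known as antibacterial proteins of the gut. Sprr2a2 measured 1888, 2733 and 1549 FPKM in Control 1 to 3, 2061, 2109 and 1923 in DSS 1 to 3, 2264, 2253, 2201 and 2148 in WT 1 to 4, 1797, 2200.4, 1984 and 2546 in KO 1 to 4, and 1721, 1633, 2134 and 1938 in COM 1 to 4. Its copy Sprr2a1 measured 479, 655 and 439.5 FPKM in Control 1 to 3, 484, 474 and 462 in DSS 1 to 3, 558, 583, 515 and 538 in WT 1 to 4, 440.4, 533, 498 and 620.3 in KO 1 to 4, and 418, 406, 517 and 469 in COM 1 to 4. Sprr2a3, the third copy, measured 50.7, 63.8 and 37.9 FPKM in Control 1 to 3, 42.2, 57.7 and 50.3 in DSS 1 to 3, 67.2, 49.0, 48.7 and 55.1 in WT 1 to 4, 48.3, 52.2, 56.3 and 69.3 in KO 1 to 4, and 33.5, 39.3, 57.0 and 53.6 in COM 1 to 4. These 3 genes were high in every library, Control included, and their sum of 2026 to 3452 FPKM was of the order of Krt8. Sprr2a2 was 3.52 to 4.45 times Sprr2a1, but 96.5% and 96.3% of their 50-base stretches are shared with another gene, so how the authors' counting split them is uncertain. Sprr2d, described here after its values were seen, measured 0, 0 and 0 FPKM in Control 1 to 3, 0, 22.5 and 0 in DSS 1 to 3, 0, 7.21, 0 and 2.63 in WT 1 to 4, 0, 0, 0.75 and 0 in KO 1 to 4, and 0.13, 0, 35.1 and 0 in COM 1 to 4. Sprr3, an envelope protein of oesophagus-like mucosa, lay at 0.21 to 1.67 FPKM in the 5 libraries and was listed at 0 in the 13 others. Sprr1a, an envelope precursor also chosen after its values were seen, measured 6.93, 25.8 and 111 FPKM in Control 1 to 3, 27.2, 52.8 and 38.4 in DSS 1 to 3, 25.7, 66.1, 38.4 and 24.9 in WT 1 to 4, 26.9, 92.4, 36.9 and 39.0 in KO 1 to 4, and 27.1, 32.3, 31.7 and 20.7 in COM 1 to 4. It had no tie to the 5 libraries: Control 1 was lowest and Control 3 highest in the whole series.

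Krt7, a type II chain of glandular ducts and transitional epithelium, was the most abundant of the other soft keratins and measured 56.6, 42.5 and 80.97 FPKM in Control 1 to 3, 58.6, 92.7 and 63.6 in DSS 1 to 3, 73.2, 72.4, 65.0 and 69.0 in WT 1 to 4, 78.5, 72.5, 66.5 and 66.7 in KO 1 to 4, and 76.4, 83.9, 77.1 and 74.5 in COM 1 to 4. It was present throughout, lowest in Control 2 and highest in DSS 2. Krt23, a type I keratin, measured 1.29, 2.1 and 3.33 FPKM in Control 1 to 3, 1.39, 2.06 and 2.4 in DSS 1 to 3, 2.17, 1.3, 1.98 and 1.66 in WT 1 to 4, 3.52, 4.67, 3.46 and 3.12 in KO 1 to 4, and 2.19, 2.66, 3 and 1.47 in COM 1 to 4. The KO libraries held 4 of its 5 highest values, and Control 3 the other. Krt12 and Krt222 stayed at or under 1.16 FPKM. Of the 16 hair and inner root sheath keratins, 12 stayed below 1 FPKM in every library. Krt36 lay at 0.27 to 3.67 FPKM, Krt84 at 0.53 to 2.99, Krt87 at 0.71 to 1.82 and Krt90 at 0.03 to 2.96. Krt90 was highest in COM 3 and DSS 2 (1.57 FPKM). All 15 libraries of the DSS-treated groups, at 0.21 or more, lay above the 3 Control libraries, at 0.11 or less. Krt90 did not pass the filter, and the share of all genes with this order was not counted. Krt36 was highest in COM 3 and Krt84 in DSS 2 and COM 3, with overlap between the 5 libraries and the rest for each.

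**Figure D2:**
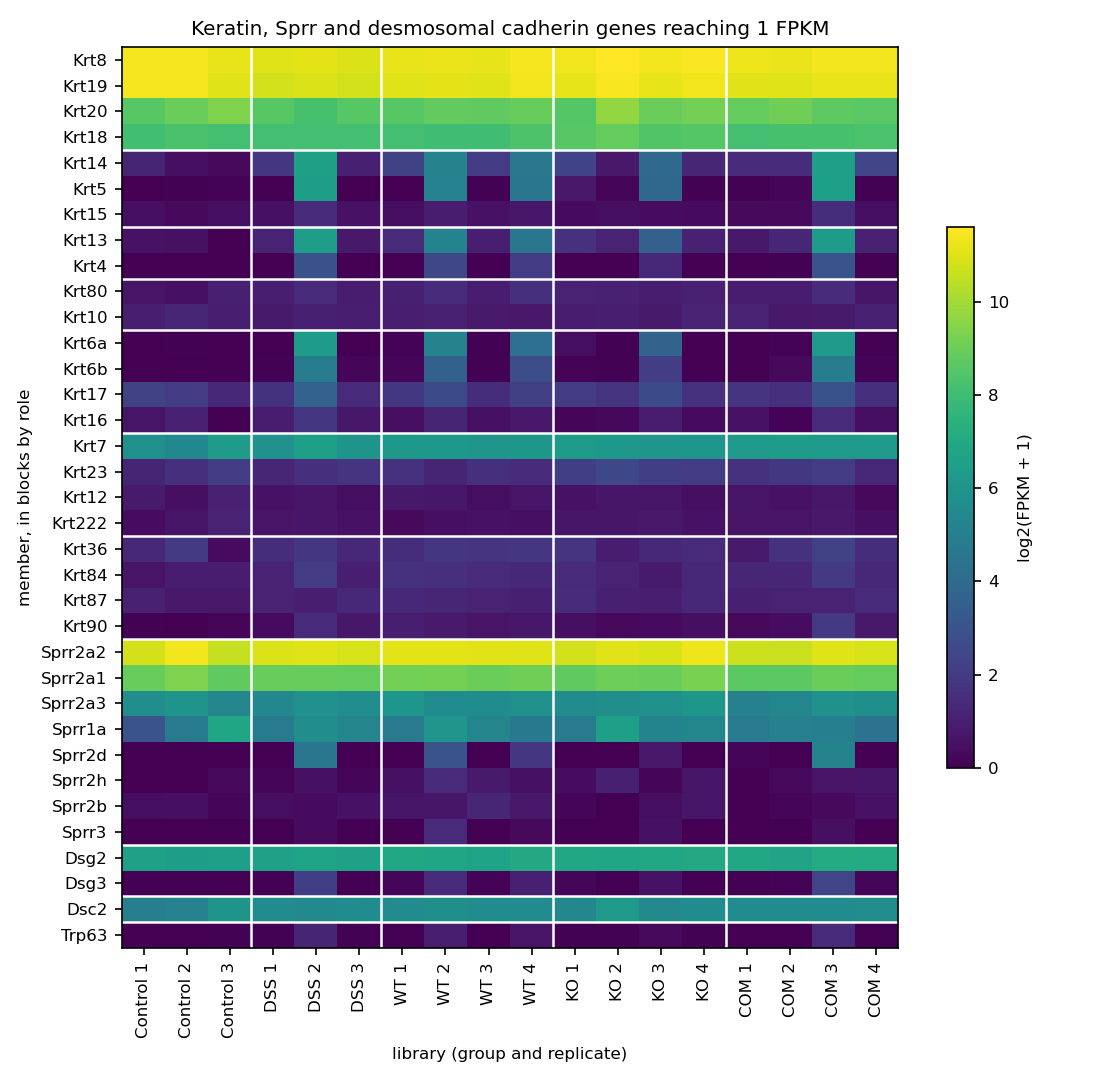
Members that reach 1 FPKM (vertical axis, grouped by role) in each of the 18 libraries (horizontal axis), with colour giving log2(FPKM + 1). The stratified members are high together in DSS 2, WT 2, WT 4, KO 3 and COM 3, while Krt8, Krt18, Krt19, Krt20 and the Sprr2a genes are high in all libraries.

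Set side by side, 11 members had exactly DSS 2, WT 2, WT 4, KO 3 and COM 3 as their 5 highest libraries, all above the other 13: Krt5, Krt14, Krt4, Krt13, Krt6a, Krt6b, Sprr2d, Sprr3, Dsg3, Dsc3 and Trp63. The same order was found in 43 of the 18284 genes outside the set (0.235%). The 5 libraries were picked by the summed level of 9 stratified keratins, 6 of them among these 11 genes, so for those the order is a description of the choice. The 5 others, Sprr2d, Sprr3, Dsg3, Dsc3 and Trp63, did not enter the sum. The sum was 164 FPKM in WT 2 and 99.1 in WT 4, 407 in DSS 2, 63.02 in KO 3 and 390.0 in COM 3, and 2.16 to 10.7 in the 13 other libraries. As a share of these 9 keratins and the 4 simple ones together it was 2.92%, 1.57%, 7.65%, 1.06% and 6.28% in the same order, and 0.0399% to 0.185% in the rest. The type II over type I ratio of these keratins was 1.04 in DSS 2, 1.09 in WT 2, 0.968 in WT 4, 0.954 in KO 3 and 1.10 in COM 3, against 0.0044 to 0.1215 elsewhere, where mostly Krt17 and Krt14 were left.

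**Figure D3:**
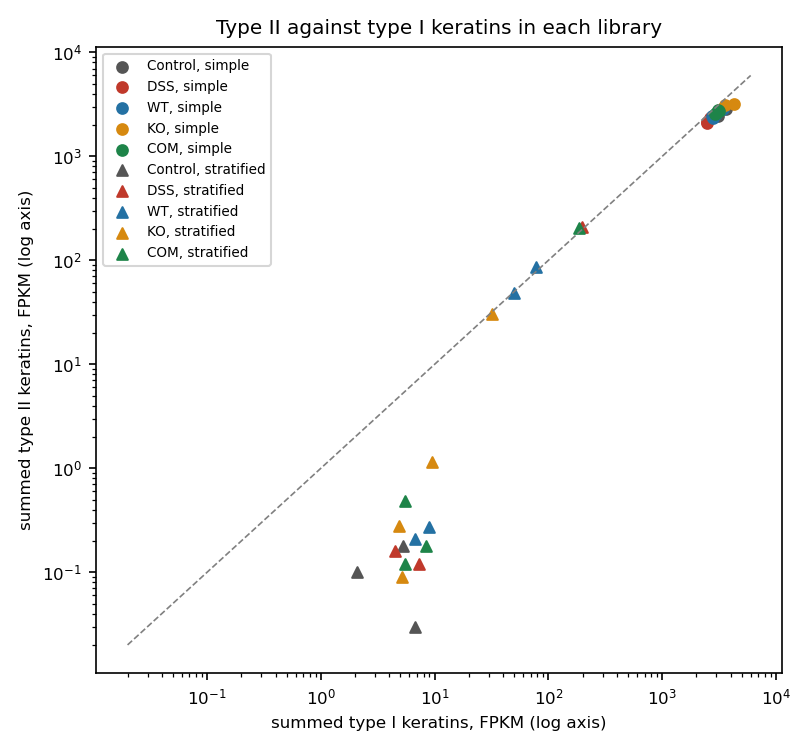
Summed FPKM of type I (horizontal) against type II (vertical) chains in each library on log axes, for simple (circles) and stratified (triangles) keratins, coloured by group; the dashed line marks equal sums. The 5 libraries with the stratified signal lie near equal sums, from 30.8 and 32.3 FPKM in KO 3 to 208 and 199 FPKM in DSS 2.

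Partner genes of squamous epithelium that are not members were counted from lists. Of 31 cornified-envelope and squamous differentiation partners in the table, 6 had all 5 libraries above the other 13: Tgm1, Ppl, Cnfn, Lypd3, Calml3 and Spink5. Cnfn, which encodes the envelope protein cornifelin, was at 8.72 FPKM in DSS 2, 8.12 in WT 2, 3.42 in WT 4, 3.61 in KO 3 and 8.95 in COM 3, and at most at 0.18 elsewhere. Of 9 desmosome partners this held for Ppl, and of 21 hemidesmosome and basal-layer genes for Col17a1 and Sox2. Some of these margins were narrow. Ppl was at 2.84 FPKM in KO 3 against 2.7 in KO 1, and Spink5 at 0.19 against 0.16 in the same libraries. Col17a1 was at 0.33 in KO 3 against 0.25 in WT 1, and Sox2 stayed below 1 FPKM in every library. Among genes with at least 5 FPKM in each of the 5 libraries, those with the same order were Ppbp, Psca, S100a4, Ankrd44 and Abcc1. Psca was at 5.13 to 50.2 FPKM in the 5 libraries and at most at 0.27 in the others, and Ppbp at 8.55 to 62.0 against at most 0.57. For the remaining genes the lowest of the 5 libraries barely passed the highest of the others. It was 13.6 against 12.57 FPKM for S100a4, 6.93 against 6.73 for Ankrd44 and 9.08 against 9.07 for Abcc1.

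Markers of other tissues were read beside this. None of the 18 columnar-epithelium genes, 5 melanocyte genes, 6 sebaceous and perianal gland genes, 10 skeletal muscle genes or 8 hair follicle genes had the 5 libraries above the rest. The summed skeletal muscle markers were 9.54 to 13.4 FPKM in the 5 libraries and 7.99 to 17.98 in the others, the sebaceous and perianal gland markers 16.7 to 22.0 and 15.1 to 24.9, and the hair follicle markers 3.87 to 7.18 and 2.31 to 6.73. The summed distal-position Hox genes were 306 to 406 FPKM in the 5 libraries and 6.87 to 511 in the others. None of 10 neutrophil genes had the order either, and their sum, most of it Ly6g, was 183 to 325 FPKM in the 5 libraries and 1.82 to 345 in the others. KO 3 was also among the 3 libraries rich in pancreatic acinar genes, with a summed level of 8504 FPKM, beside 24640.0 in DSS 1, 4489 in DSS 3 and 84.2 to 347 in the 15 others. The part of tissue from outside the colon wall in any of these levels was not tested.

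DSS against Control compares colons 5 weeks after DSS with untreated ones; since no gavage is described for Control mice, DSS and gavage cannot be told apart. Krt19 fell in DSS, from 2581 ± 383 FPKM (SD, n = 3) in Control to 1906 ± 142 FPKM (SD, n = 3) in DSS, with all 3 DSS libraries below all 3 Control libraries (log2 fold change -0.43 ± 0.13 (SE), adjusted p = 0.0327). In this limma model over all genes, with Benjamini-Hochberg adjustment, Krt19 was the only one of 27 tested members to be called, against 16.9% of all tested genes. Krt8 was at 2659 ± 274 FPKM (SD, n = 3) in Control and 2135 ± 113 FPKM (SD, n = 3) in DSS, also without overlap, and just missed the threshold (log2 fold change -0.31 ± 0.11 (SE), adjusted p = 0.054). The share of all genes without overlap between these groups was not counted. Krt20 (log2 fold change -0.49 ± 0.24 (SE), adjusted p = 0.16) and Krt18 (log2 fold change -0.02 ± 0.10 (SE), adjusted p = 0.921) were not called. The median over the 4 simple keratins was -0.37 on the log2(FPKM + 1) scale, beside 0.05 over all tested genes. That scale understates the change of genes with low FPKM.

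Of 18 columnar-epithelium genes on a separate list, 4 fell in DSS and 1 rose. Those that fell were Vil1 and Cdhr5, both of the brush border, the transcription factor Cdx1 and Phgr1. Of all 13263 tested genes, 704 fell and 1539 rose, and the list's median log2 fold change was -0.33. The log2 fold changes of those that fell were -0.42, -0.55, -0.24 and -0.78, and the mucus protein gene Fcgbp rose by 1.36. The acinar-rich libraries DSS 1 and DSS 3 are both in the DSS group. Without the 3 acinar-rich libraries, that group held DSS 2 alone, which is also squamous-rich. Krt19 stood at -0.31 in that fit, and with a single DSS library it is not read as having kept its call. The call of Krt19 was lost without Control 1, Control 2, DSS 1 or DSS 3 taken singly (adjusted p = 0.0682, 0.0891, 0.094 and 0.101), and without the 5 squamous-rich libraries (0.108). The count of members called was 0 without Control 2, DSS 1 or DSS 3, and 3 (Krt19, Krt7 and Krt8) without Control 3. Without Control 1 it was 1, but the member called was Krt20 (log2 fold change -0.70, adjusted p = 0.0475), and without WT 4 or KO 2 it was 2 (Krt19 and Krt8).

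The stratified keratins had large but unsettled differences in DSS against Control, since 1 of the 3 DSS libraries carried them. Krt14 had a log2 fold change 2.53 ± 1.47 (SE), adjusted p = 0.247, with a 95% interval of -0.60 to 5.66, and Krt13 a log2 fold change 2.41 ± 1.60 (SE), adjusted p = 0.316. Without DSS 2 the difference for Krt14 was 0.80. In no comparison was Krt5, Krt14, Krt4, Krt13, Krt6a, Krt6b, Sprr2d or Dsg3 called. Their number among the tested members rests on the 5 libraries: without those libraries, 20 members rather than 27 passed the filter, so no count or median over them is given as support.

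**Figure D4:**
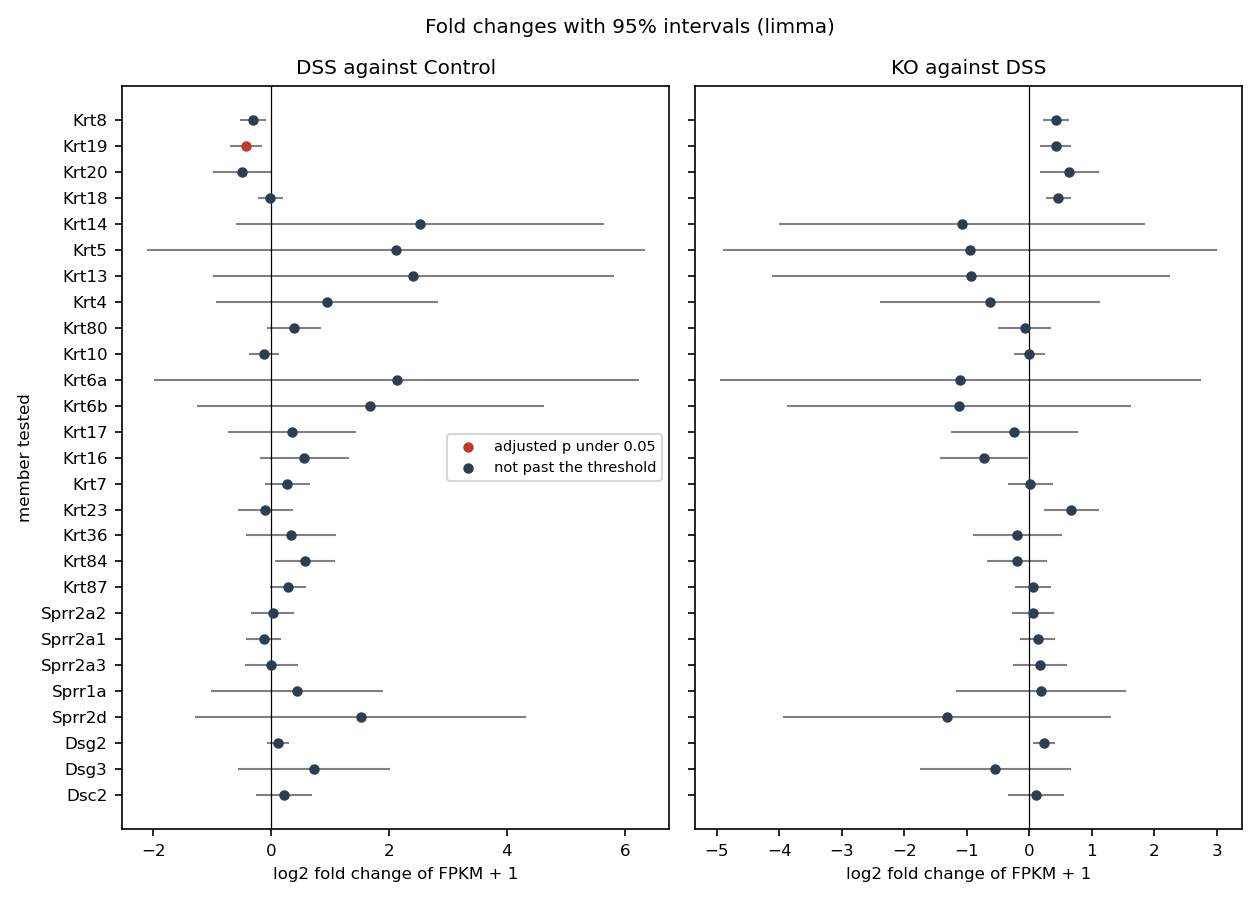
Log2 fold change of FPKM + 1 (horizontal) for each tested member (vertical), with 95% intervals from limma, in DSS against Control and in KO against DSS. The intervals of the stratified members span 0 and are several units wide, while those of Krt8, Krt18 and Krt19 are narrow.

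Some partner genes outside the set were called in this comparison, in which 16.9% of all tested genes were. Among the tested hemidesmosome and basal-layer genes, 0 fell, and those that rose included the integrin Itga6 (log2 fold change 0.60 ± 0.11, SE) and the laminin chain Lama3 (0.88 ± 0.27). Of 9 desmosome partners, Pkp1, a plakophilin of stratified epithelium, rose (0.78 ± 0.24). Of 18 tested cornified-envelope and squamous partners, 2 rose, Ly6d (2.13 ± 0.64) and Serpinb5 (0.51 ± 0.11). None of these lists, the hemidesmosome and basal-layer list included, had a share called above that of all genes. The adjusted p-values of these 5 genes in limma ran from 0.00294 for Itga6 to 0.0386 for Lama3. DSS 2, which carried the squamous genes, was the highest of the 3 DSS libraries for all 5 (Ly6d at 79.8 FPKM, beside 36.8 in DSS 1 and 45.0 in DSS 3), and its part in these calls was not tested.

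Each strain group was compared with Control, which asks what differed from untreated colon after DSS and bacteria; these 3 comparisons and that of DSS share the same Control libraries. Dsg2 rose in all 3 strain groups. Its level was 93.9 ± 5.89 FPKM (SD, n = 3) in Control, 101 ± 2.58 FPKM (SD, n = 3) in DSS, 118 ± 9.95 FPKM (SD, n = 4) in WT, 119.7 ± 5.25 FPKM (SD, n = 4) in KO and 128 ± 14.2 FPKM (SD, n = 4) in COM. In limma the values were log2 fold change 0.32 ± 0.08 (SE), adjusted p = 0.0126 for WT, log2 fold change 0.35 ± 0.08 (SE), adjusted p = 0.0269 for KO and log2 fold change 0.44 ± 0.08 (SE), adjusted p = 0.00796 for COM. Dsg2 in DSS against Control was not called (log2 fold change 0.11 ± 0.09 (SE), adjusted p = 0.423). In each strain group all libraries were above all Control libraries, an order whose share over all genes was not counted. The WT and COM calls held when any library was left out singly. With only the groups compared in the model, all 3 calls were lost at the same differences (adjusted p = 0.0638 for WT, 0.148 for KO and 0.125 for COM). The KO call was lost without Control 2, KO 1, KO 3 or KO 4 (adjusted p = 0.0845, 0.0698, 0.0557 and 0.0604). Without the 5 squamous-rich libraries the differences were 0.28 for WT, 0.35 for KO and 0.39 for COM, with adjusted p = 0.128, 0.105 and 0.0857.

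Krt18 rose in KO against Control, from 287 ± 17.3 FPKM (SD, n = 3) to 393 ± 50.4 FPKM (SD, n = 4) (log2 fold change 0.45 ± 0.09 (SE), adjusted p = 0.0146), and kept its call with any single library left out. With only the KO and Control libraries in the model the difference was the same and the adjusted p 0.202. The other member called was Krt84, a hair and tongue keratin, which rose in WT against Control (log2 fold change 0.69 ± 0.23 (SE), adjusted p = 0.0389) at a mean of 1.49 FPKM over the series. Its call was lost without any of Control 1, 2 or 3 or WT 1, 2 or 3, with adjusted p from 0.0648 to 0.0876.

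The members called were thus 2 of 27 in WT (23.1% of all genes), 2 in KO (5.14%) and 1 in COM (7.6%), against Control. With libraries left out singly, WT had 1 without Control 1, Control 2, WT 1, WT 2 or WT 3 and 4 without Control 3. KO had 1 without Control 2, KO 1, KO 3 or KO 4 and 4 without Control 3. COM had 2 without DSS 2 and 3 without Control 3. Among the partner genes, those that rose included Itga6 in all 3 strain groups (by 0.62 in WT, 0.41 in KO and 0.53 in COM), and Pkp1 and the desmosomal plaque gene Dsp in WT and COM. Dsp rose by 0.45 in WT and by 0.39 in COM.

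Strain groups against DSS ask what ZJ316 or its derivatives changed beyond gavage with saline. No member was called in WT, KO or COM against DSS; all tested genes gave 0.0%, 0.166% and 0.0151%. At an unadjusted p under 0.05 there were 2 of 27 members in WT, 7 in KO and 3 in COM, beside 633, 2160 and 1461 of 13263 genes. In KO against DSS all 4 simple keratins stood higher with an unadjusted p under 0.05. Krt18 was at 283 ± 2.64 FPKM (SD, n = 3) in DSS and 393 ± 50.4 FPKM (SD, n = 4) in KO (log2 fold change 0.47 ± 0.09 (SE), adjusted p = 0.0574). Krt8 (log2 fold change 0.43 ± 0.10 (SE), adjusted p = 0.0829), Krt19 (log2 fold change 0.42 ± 0.12 (SE), adjusted p = 0.127) and Krt20 (log2 fold change 0.64 ± 0.22 (SE), adjusted p = 0.186) had similar or larger differences with wider errors.

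The count of called members in KO against DSS was 1 without Control 1 or WT 4 (Krt18), and 3 without Control 3 (Krt8, Krt18 and Krt19). Krt18 had an adjusted p of 0.041, 0.0458 and 0.0316 in those limma fits, in this order Control 1, WT 4 and Control 3, and 0.0488 with a filter of 5 FPKM. None of the libraries left out there belongs to the groups compared. With libraries left out singly, the adjusted p reached 0.209 for Krt18, 0.245 for Krt8 and 0.318 for Krt19. In WT against DSS the member with the smallest p among simple keratins was Krt8 (log2 fold change 0.22 ± 0.10 (SE), adjusted p = 1.0), and in COM against DSS Dsg2 had log2 fold change 0.33 ± 0.08 (SE), adjusted p = 0.177.

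Between strains, KO against WT called Krt18 alone of 27 members, against 0.829% of all genes. It rose from 285 ± 31.8 FPKM (SD, n = 4) in WT to 393 ± 50.4 FPKM (SD, n = 4) in KO (log2 fold change 0.46 ± 0.09 (SE), adjusted p = 0.0328). All 4 KO libraries above every other library was an order that 0.173% of tested genes (23 of 13263) had. The call was lost without DSS 1, WT 1, WT 2, WT 3, KO 2, KO 3 or KO 4 taken singly, with adjusted p from 0.055 to 0.137, and the count of members was then 0. Without the 5 squamous-rich libraries the difference was 0.57 (adjusted p = 0.353), and without the acinar-rich ones 0.51 (adjusted p = 0.124), both larger than with all libraries. Without Control 1 or Control 3 the count was 2, with Krt23 joining (log2 fold change 0.76 ± 0.19 (SE), adjusted p = 0.064 with all libraries).

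In COM against KO, Krt18 stood lower in COM without a call (log2 fold change -0.38 ± 0.09 (SE), adjusted p = 0.159), and 0 of 27 members were called, beside 0.0302% of all genes. COM against WT called 0 as well, beside 0.00754% of all genes. The smallest p-values there were those of Sprr2a1 (log2 fold change -0.28 ± 0.12 (SE), adjusted p = 0.408) and Sprr2a2 (log2 fold change -0.26 ± 0.15 (SE), adjusted p = 0.518). At an unadjusted p under 0.05, COM against KO had 2 members and COM against WT 1.

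Krt20, Sprr1a and Dsc2 had the same 2 libraries at the top, Control 3 and KO 2. They were picked after this order was seen, and the share of all genes that have it was not counted. Genes outside the set with the same 2 libraries at the top included Muc2, Guca2a and Cdx2 of the columnar-epithelium list. Krt20 was at 653 FPKM in Control 3 and 854 in KO 2, and at 302 to 586 elsewhere. Dsc2 was at 64.3 and 75.6 FPKM in the same libraries and at 30.3 to 54.8 elsewhere, and Sprr1a at 111 and 92.4 against 6.93 to 66.1. Those 2 libraries were the lowest in Hoxb13, a Hox gene of the most distal gut, at 0.76 FPKM in Control 3 and 79.3 in KO 2, with 173 to 364 elsewhere. They were also lowest in the summed distal-position Hox genes, most of which is Hoxb13, at 6.87 and 92.7 FPKM. Single Hox genes did not all follow. Hoxa13 was at 11.2 FPKM in KO 2, among its higher values, and Hoxd10 was lower in DSS 3 (1.14) than in Control 3 (3.11). The part of position along the colon in Krt20, Sprr1a and Dsc2 was not tested.

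**Figure D5:**
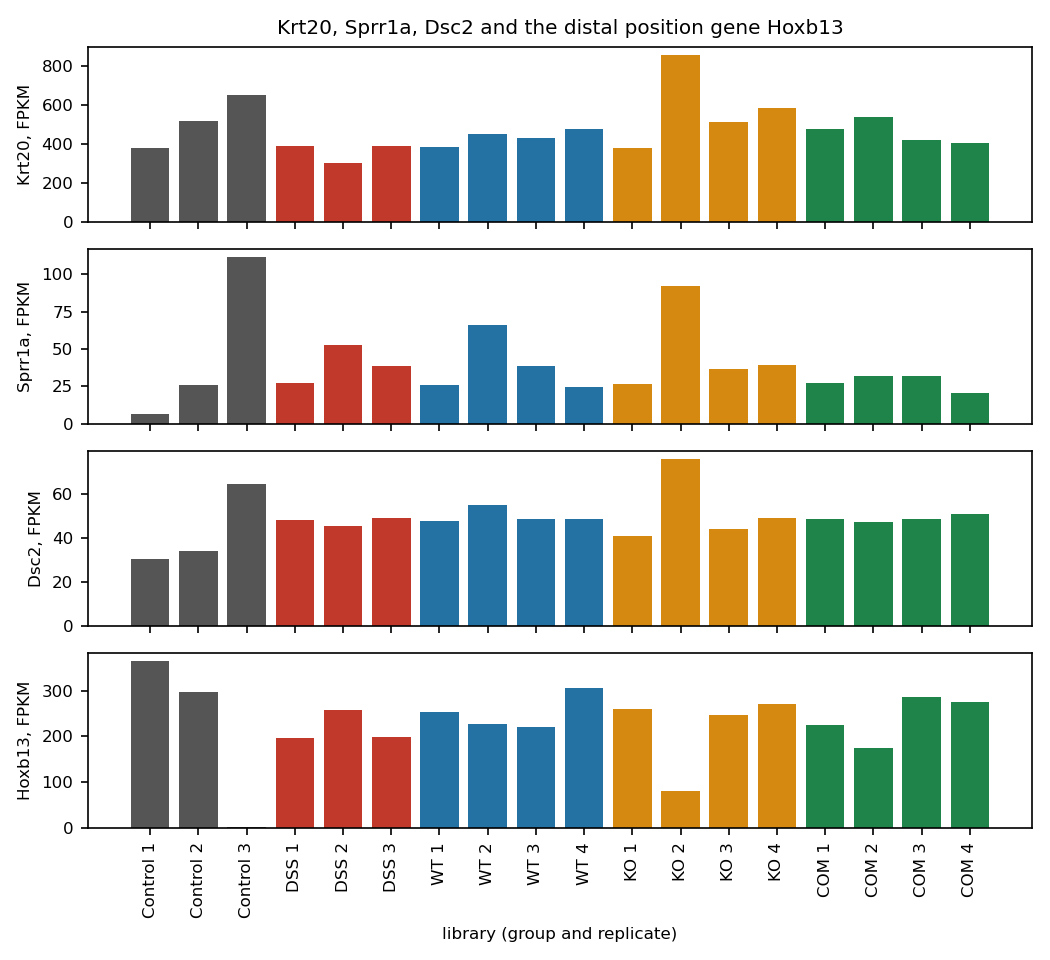
Krt20, Sprr1a, Dsc2 and Hoxb13 in FPKM (bars from 0, 1 per library, coloured by group). Control 3 and KO 2 have the highest bars for Krt20, Sprr1a and Dsc2 and the lowest for Hoxb13.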

How the data were processed

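RNA extracted from whole, rinsed and frozen colon was read on the DNBSEQ platform, according to the labels. What the authors deposited is a single table of FPKM, with 18349 genes in rows and 18 libraries in columns. The submitters' processing notes give the build mm10; none of aligner, quantifier and annotation is given in the sources used here. Because FPKM hides the fragment number, no counting interval is printed. Symbols came from the RefSeq table of GRCm38.p6 for 18230 gene identifiers, and 119 had none. No library was a copy of another.

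Values were taken as log2(FPKM + 1). A gene entered the tests if 3 or more libraries reached 1 FPKM, which left 13263. They were modelled with limma 3.58.1 (R 4.3.3) as 5 groups, with a mean-variance trend, without a replicate block, and with 10 two-sided contrasts. Calls needed an adjusted p (Benjamini-Hochberg, over all tested genes of a contrast) under 0.05. The code was tested on simulated data. Sharing of 50-base stretches between genes was counted in GENCODE transcripts.

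The members and lists were chosen with earlier results of these data known. Values in every library are given for the simple keratins, Ivl, Trp63 and up to 3 members of each other class with the highest mean; those under 4 FPKM throughout, such as Krt10 or Krt36, are given by range. In each comparison every called member is named; 1 gene of a partner list is not reported here. A rule for genes most like the set, based on the sum of all members but the simple keratins, took Control 2, DSS 2, WT 2, KO 4 and COM 3, since Sprr2a2 dominates that sum, and gave Tnfaip3 alone. The version with stratified keratins was chosen after seeing the data. So was the leaving out of squamous-rich, acinar-rich and low-Hox libraries. Other alternatives were a pseudocount of 0.1, no filter, a filter of 5 FPKM, quantile normalization, TPM rescaling, a fit to the compared groups alone, a replicate block, and leaving each library out.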

Additional observations from a re-analysis of the deposited data

Results flagged for a closer look

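In the WT, KO and COM groups of 4 libraries, 29 members were examined for a library set far apart, a gap of more than 0.829 of the group's range. This was met in 22 of 87 checks, where chance gives about 1 in 20. The 29 were a chosen list, neither the whole set nor only members that passed the filter: Krt15, Dsc3 and Trp63 were among them. The list held members already seen to be high in the squamous-rich libraries, such as Krt5 and Krt14. That choice favoured an excess, so the count cannot be weighed against chance. The members also move together, so the checks are not independent.

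In COM, library 3 stood apart upward for 13 members. The basal and regulatory genes were Krt5 at 94.3 FPKM, Krt14 at 93.4, Krt15 at 1.91 and Trp63 at 1.59. The mucosal and injury keratins were Krt13 at 82.0, Krt4 at 6.97, Krt6a at 74.8, Krt6b at 28.3 and Krt17 at 6.67. The others were Krt84 at 2.92, Sprr2d at 35.1, Dsg3 at 4.31 and Dsc3 at 0.63 FPKM.

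In KO, library 3 stood apart upward for 7 members: Krt5 at 13.7 FPKM, Krt13 at 10.8, Krt4 at 1.5, Krt6a at 12.2, Krt6b at 3.35, Sprr2d at 0.75 and Trp63 at 0.24. In WT, where libraries 2 and 4 both carried the squamous genes, the members with a library apart were Dsc2 at 54.8 FPKM in WT 2 and Krt36 at 1.87 in WT 1. Groups of 3, Control and DSS, were not examined in this way.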

How the results depend on the processing

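No replicate block was used, since the numbers did not pair libraries: over 33 same-numbered couples the median correlation of deviations was 0.0132, with 13 above 0.1, and 3 of 18 libraries were closest to one of their own number. With the replicate block, members called were 1 in WT against Control and 0 in KO against WT, and none of the other counts moved.

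In DSS against Control the count of 1 became 0 with no filter, with quantile normalization, with only the groups compared and without the squamous-rich libraries, 2 with a filter of 5 FPKM and 4 without the low-Hox libraries Control 3 and KO 2. In WT against Control the count of 2 became 1 with a filter of 5 FPKM, with quantile normalization, with only the groups compared and without the squamous-rich libraries (Krt84 was left in these 2 fits, Dsg2 in the others), and 5 without the low-Hox libraries. In KO against Control it became 0 with only the groups compared, and 1 without the squamous-rich or the acinar-rich libraries. In COM against Control the count of 1 became 0 with only the groups compared or without the squamous-rich libraries, 2 without the acinar-rich libraries and 3 without the low-Hox libraries. In KO against DSS it became 2 with a filter of 5 FPKM. In KO against WT it became 0 with quantile normalization and without the squamous-rich or acinar-rich libraries, and 2 with only the groups compared.

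With each library left out, counts ran from 0 to 3 in DSS against Control, 1 to 4 in WT against Control, 1 to 4 in KO against Control, 1 to 3 in COM against Control, 0 to 3 in KO against DSS and 0 to 2 in KO against WT, and stayed at 0 in the 4 other comparisons. Krt18 in DSS against Control, at -0.02, changed sign to 0.092 with quantile normalization and 0.016 with rescaling to TPM, and with each library left out ran from -0.051 to 0.031, the last without Control 2. Of the other values of named members under an alternative, 664 kept direction and side of the threshold, 41 lost a call and 16 gained one. The cause was not tested, beyond fewer genes or libraries where an alternative removes them. FPKM near 0.1 rests on an unknown, small number of fragments.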
